A study of Mus musculus with 9 samples.

Results

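The genes described here are mouse germ line genes of the PIWI-interacting RNA (piRNA) pathway and of the silencing of transposons that accompanies it: Nanos2, Dnmt3l, Piwil2, Piwil4, Tdrd1, Tdrd5, Tdrd9, Morc1 and Mael. They were chosen by name for their known roles and matched from symbol to Ensembl gene ID. Of the 9 genes named, 7 were in the deposited tables, which cover 15300 genes. Nanos2, an RNA-binding regulator of male germ cell fate, and Dnmt3l, the cofactor of the de novo DNA methyltransferases, were not in those tables and were not analysed here.

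Expression was measured by RNA sequencing in C57BL/6 gonads separated from the mesonephros at stage E13.5 of embryonic development, with 3 samples in each of 3 groups. XY-KO samples were testes of genotype AMH-Cre; Sox9flox/flox, in which Cre recombinase driven by the promoter of AMH, a gene of Sertoli cells, deletes the transcription factor gene Sox9. XX-WT samples were ovaries and XY-WT samples were testes, both labelled Sox9flox/flox wildtype, so every group carried the floxed Sox9 alleles and the controls carried no Cre in their labels. The Cre driver is a gene of somatic supporting cells, not of germ cells. Whether each sample was a single fetus or a pool is not in the labels, so errors and p-values describe the spread between samples only, which may be technical.

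Piwi proteins bind piRNAs, short RNAs that recognise transcripts of transposons. In fetal male germ cells, called prospermatogonia once they stop dividing, the pathway cuts those transcripts in cytoplasmic granules and then guides DNA methylation to transposon copies in the nucleus. Female fetal germ cells, which enter meiosis instead, also express many of its genes. Piwil2 (MILI) is the cytoplasmic Piwi protein and Piwil4 (MIWI2) the nuclear protein. Tdrd1, Tdrd5 and Tdrd9 carry tudor domains, which bind methylated arginines of partner proteins. Tdrd1 binds MILI, Tdrd9 is an RNA helicase that works with MIWI2, and Tdrd5 is needed to assemble the granules. Mael (Maelstrom) is a granule protein with a high mobility group box, and Morc1 is an ATPase needed for transposon silencing in the male germ line.

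Promoter sequences at the start sites of these genes were read for short motifs, and are credited to RefSeq on GRCm38.p6. Windows of 300 bases, 250 before and 50 after a transcription start, were held for 5 of the 7 measured genes, as 8 windows. Piwil2 and Morc1 had no window. The first window of 3 genes that hold the E-box CACGTG is shown beside that of Tdrd5, which does not hold these letters. Neither Piwil4 window holds it. The genes that hold it had log2 fold changes of 1.43 (Mael), 1.30 (Tdrd9) and 0.71 (Tdrd1) in XX-WT against XY-WT per the authors' deposited table. The genes with a window but without the motif were at 1.39 (Piwil4) and -0.13 (Tdrd5). A relation between the motif and the difference between ovary and testis was not tested. Each sequence is given 5′ to 3′ on the strand of its gene, with CACGTG in capitals. The Mael window is chr1:166238695-166238994 on the minus strand, the Tdrd1 window chr19:56825959-56826258 on the plus strand, the Tdrd9 window chr12:111971309-111971608 on the plus strand and the Tdrd5 window chr1:156303299-156303598 on the minus strand.
Mael: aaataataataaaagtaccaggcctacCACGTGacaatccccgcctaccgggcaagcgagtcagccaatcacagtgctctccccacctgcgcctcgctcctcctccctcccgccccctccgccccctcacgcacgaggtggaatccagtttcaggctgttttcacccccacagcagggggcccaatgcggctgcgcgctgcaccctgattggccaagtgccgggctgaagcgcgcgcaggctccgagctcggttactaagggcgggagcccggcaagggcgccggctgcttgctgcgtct
Tdrd1: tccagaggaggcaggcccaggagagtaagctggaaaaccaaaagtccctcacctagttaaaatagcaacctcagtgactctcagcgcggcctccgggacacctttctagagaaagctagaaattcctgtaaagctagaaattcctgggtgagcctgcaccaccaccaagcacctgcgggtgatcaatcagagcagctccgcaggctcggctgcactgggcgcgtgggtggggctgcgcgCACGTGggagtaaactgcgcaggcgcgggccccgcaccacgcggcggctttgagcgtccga
Tdrd9: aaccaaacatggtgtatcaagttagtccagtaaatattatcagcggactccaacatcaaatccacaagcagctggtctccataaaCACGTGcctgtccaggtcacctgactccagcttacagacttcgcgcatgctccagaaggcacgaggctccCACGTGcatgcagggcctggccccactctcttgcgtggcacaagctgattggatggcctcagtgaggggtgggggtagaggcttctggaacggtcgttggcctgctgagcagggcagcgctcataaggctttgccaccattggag
Tdrd5: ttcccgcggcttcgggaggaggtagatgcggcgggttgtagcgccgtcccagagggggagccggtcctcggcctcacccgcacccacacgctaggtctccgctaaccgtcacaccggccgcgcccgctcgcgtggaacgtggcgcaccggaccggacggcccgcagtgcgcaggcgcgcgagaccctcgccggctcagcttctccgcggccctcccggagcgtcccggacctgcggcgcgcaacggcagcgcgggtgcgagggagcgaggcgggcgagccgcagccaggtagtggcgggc
CACGTG is the core bound by MAX and other basic helix-loop-helix proteins, and TCCCGC is a core of E2F sites. MAX with its partner MGA and E2F6 belong to a complex known to keep germ line genes silent in other cells. CACGTG, which reads the same on both strands and overlaps no TCCCGC in these windows, was found in 4 of the 8 windows, against 7.15% of all 32851 promoter windows. A pair of these 4 are overlapping Tdrd1 windows that hold the same site, so by gene it was found in 3 of 5, against 8.09% of all 27025 genes with a window. It occurred 2 times in the Tdrd9 window. TCCCGC on either strand was found in 2 of the 8 windows, those of Tdrd5 and Mael, against 20.0% of all windows. The Tdrd5 window was the richest in the dinucleotide CG, with 48, the Mael window had 24, the first Tdrd1 window had 20 and the Tdrd9 window had 10, against a median of 7 over all windows. The 8 windows had a median of 15.5 CG, and CACGTG itself holds a CG. The shares over all windows and all genes were not matched for CG content. A match is a description of the letters and says nothing on binding.

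The 3 comparisons are the authors' own limma results for pairs of groups, and a gene was called changed at a Benjamini-Hochberg adjusted p under 0.05 over the 15300 genes of a table. The depth of the samples is unknown, because the tables give no values per sample, and the spread over samples enters only through the standard error (SE). Group levels in log2 CPM (CPM, counted reads scaled to a fixed total per library) were derived from the authors' mean expression and fold changes, and their SEs from the SEs of the 3 differences. The targeted gene Sox9 stood at -2.76 (SE 0.17) in XY-KO against XY-WT on the log2 scale of the authors' deposited table. Its derived level was 3.72 log2 CPM in XY-KO, 2.01 in XX-WT and 6.48 in XY-WT, so Sox9 transcript was reduced in XY-KO and not absent. It was higher in XY-KO than in XX-WT, by 1.71 (SE 0.23, adjusted p 8.14e-05) per the authors' deposited table. In XY-KO against XY-WT all 8 Sertoli cell markers were called lower, by 1.12 to 3.93, against 1.57% of all genes. The list includes Sox9, the targeted gene itself, and was chosen with earlier results of these data known. Sox9 and Amh (-2.06) had the smallest adjusted p. None of 7 pre-granulosa or 4 fetal Leydig cell markers was called by limma, against 2.27% of all genes. An unadjusted p under 0.05 was seen for 2 pre-granulosa markers, both higher in XY-KO, against 8.76% of all genes. It was seen for 0 Leydig cell markers.

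Derived levels set the scale of each gene before the comparisons. Piwil2 (chromosome 14, 70372477 to 70429383 on GRCm38) stood at 2.35 (SE 0.18) log2 CPM in XY-KO, 3.95 (SE 0.13) in XX-WT and 2.90 (SE 0.17) in XY-WT. Mael (chromosome 1, 166201201 to 166238747) stood at 2.23 (SE 0.24) in XY-KO, 4.03 (SE 0.17) in XX-WT and 2.60 (SE 0.23) in XY-WT. Both genes were highest in the ovary, by more than the SEs of the levels. Morc1 (chromosome 16, 48431237 to 48630900) stood at -0.06 (SE 0.35) log2 CPM in XY-KO, 2.03 (SE 0.19) in XX-WT and 0.99 (SE 0.26) in XY-WT, so its 3 levels were about evenly spaced, with the ovary at the top. Tdrd1 (chromosome 19, 56826209 to 56870012) stood at 3.003 (SE 0.21) in XY-KO, 3.82 (SE 0.18) in XX-WT and 3.11 (SE 0.22) in XY-WT. Tdrd5 (chromosome 1, 156255296 to 156303664) stood at 3.15 (SE 0.18) in XY-KO, 3.37 (SE 0.17) in XX-WT and 3.49 (SE 0.18) in XY-WT. Of the 7, Tdrd5 was the only gene whose highest level was that of the XY-WT testis, and its 3 levels lay close together.

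Tdrd9 and Piwil4 were the lowest of the 7. Tdrd9 (chromosome 12, 111971559 to 112068854) stood at -1.45 (SE 0.50) log2 CPM in XY-KO, 0.60 (SE 0.29) in XX-WT and -0.70 (SE 0.44) in XY-WT. Piwil4 (chromosome 9, 14696230 to 14740733) stood at -0.56 (SE 0.32) in XY-KO, 0.41 (SE 0.24) in XX-WT and -0.97 (SE 0.37) in XY-WT. These correspond to 0.366, 1.51 and 0.617 CPM for Tdrd9 in XY-KO, XX-WT and XY-WT, and to 0.680, 1.33 and 0.509 CPM for Piwil4 in the same groups. Tdrd9 had the widest SE of the 7 genes in each group. All 7 are protein-coding. Piwil4 shares 137 of its 5385 annotated exon bases with an antisense RNA and Tdrd5 shares 176 of 6937 with another; whether the counting used strand is not given in the sources used here, so those reads could not be assigned to a strand.

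**Figure D1:**
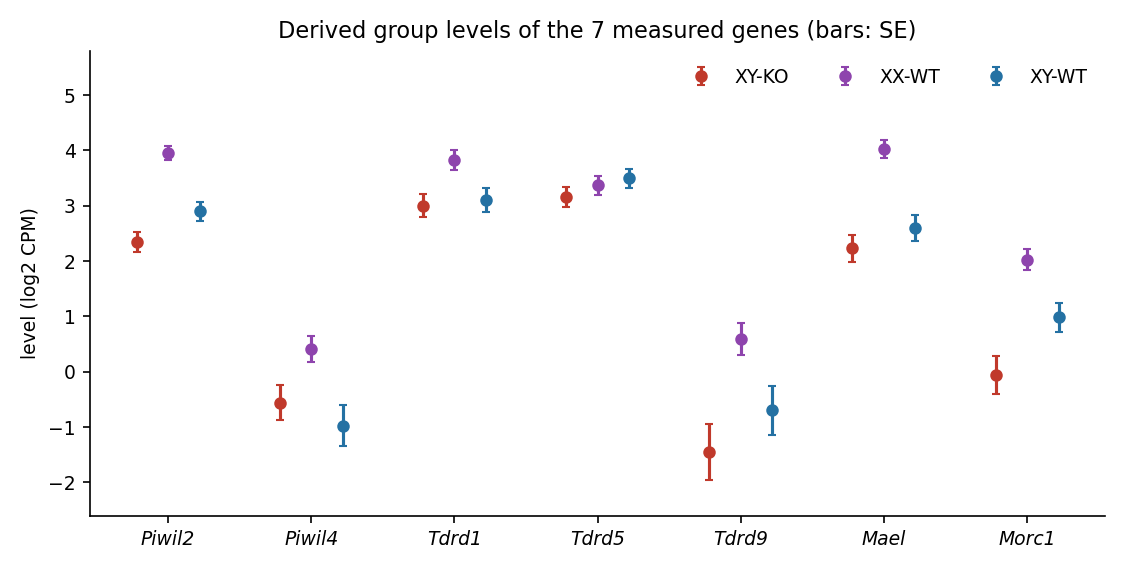
Derived level of each of the 7 genes on the vertical axis in log2 CPM, with SE bars, for XY-KO, XX-WT and XY-WT from left to right within each gene. XX-WT holds the highest point for every gene except Tdrd5, whose levels were 3.15, 3.37 and 3.49.

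Between genes, levels were compared per kilobase of the longest annotated transcript. Mael led in each group, at 2.77 CPM per kb in XY-KO, 9.65 in XX-WT and 3.57 in XY-WT. Tdrd5 came next in the testes, at 2.37 CPM per kb in XY-KO and 2.999 in XY-WT, while in XX-WT the level per kb of Piwil2 (3.15) lay above those of Tdrd5 (2.74) and Tdrd1 (2.72). Tdrd9 was at the low end, at 0.0761 CPM per kb in XY-KO, 0.315 in XX-WT and 0.128 in XY-WT. The nuclear Piwi gene Piwil4, at 0.206, 0.403 and 0.154 CPM per kb in XY-KO, XX-WT and XY-WT, was likewise far below the cytoplasmic Piwi gene Piwil2, at 1.04, 3.15 and 1.52. Differences in level between genes were not tested.

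The comparison of XY-KO with XY-WT asks whether these germ line genes depend on Sox9 in the Sertoli cells around the germ cells. None of the 7 genes was called by limma per the authors' deposited table, against 2.27% of all genes, and 2 had an unadjusted p under 0.05, both lower in XY-KO, against 10.2% of all genes. The log2 fold change was negative for 6 of the 7, with a median of -0.37, against -0.01 over all genes. In a bulk sample, fewer cells of a type and less RNA per cell cannot be told apart.

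Among the Piwi genes, Piwil2 was at -0.55 in XY-KO against XY-WT (95% interval -1.07 to -0.02, adjusted p 0.242) per the authors' deposited table. Piwil4 was at 0.42 (95% interval -0.62 to 1.46, adjusted p 0.690), the only positive value of the 7 per the authors' deposited table. Among the tudor genes, Tdrd1 was at -0.11 (-0.75 to 0.54), Tdrd5 at -0.34 (-0.88 to 0.20) and Tdrd9 at -0.75 (-2.17 to 0.67) per the authors' deposited table. The largest difference of the 7 in size was that of Morc1, at -1.04 (95% interval -1.97 to -0.11, adjusted p 0.213) per the authors' deposited table. The Morc1 interval reaches from a 1.08-fold to a 3.93-fold lower level, while that of Tdrd1 holds both a 1.68-fold lower and a 1.46-fold higher level. Mael was at -0.37 (95% interval -1.08 to 0.34, adjusted p 0.593) per the authors' deposited table. For 5 of the 7 genes the interval included 0, and all 7 stayed short of the threshold after adjustment.

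The comparison of XX-WT with XY-WT asks how the control gonads differ by sex. Piwil2, Piwil4, Morc1 and Mael were higher in XX-WT ovary, by 2.06-fold to 2.70-fold, and none of the 7 genes was lower. These 4 of 7 calls stand against 10.9% of all genes called higher in XX-WT. The median log2 fold change of the 7 was 1.05, against 0.00 over all genes. The word prospermatogonial is used for these genes because of their role in the male germ line. None of the 7 measured genes was called higher in the XY-WT testis at this stage. Nanos2 and Dnmt3l were not analysed, so this does not cover them. Markers of germ cells of either sex, described below, had a median of 0.73 in the same comparison, with 6 called higher and 1 lower.

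Mael rose by 1.43 (SE 0.29, adjusted p 0.00167) in XX-WT against XY-WT per the authors' deposited table, which is 2.70-fold with a 95% interval of 1.77 to 4.11. The cytoplasmic Piwi gene Piwil2 rose by 1.05 (SE 0.21, adjusted p 0.00175), or 2.07-fold (1.52 to 2.83), per the authors' deposited table. The mean expression of Mael (2.951 log2 CPM) and of Piwil2 (3.067) lay below the median of 3.194 over all genes. The SE of Piwil2 was the smallest of the 7, while that of Mael (0.285) was above those of Tdrd1 (0.282) and Tdrd5 (0.246). The nuclear Piwi gene Piwil4 rose by 1.39 (SE 0.44, adjusted p 0.0326), or 2.62-fold (1.37 to 5.02), and Morc1 by 1.04 (SE 0.32, adjusted p 0.0291), or 2.06-fold (1.28 to 3.32), per the authors' deposited table. The intervals of Piwil4 and Morc1 are wider than that of Piwil2, and their derived levels are lower.

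The 3 tudor genes did not pass in this comparison. Tdrd9 was at 1.30 (SE 0.52, adjusted p 0.0886) and Tdrd1 at 0.71 (SE 0.28, adjusted p 0.0824) in XX-WT against XY-WT per the authors' deposited table. Tdrd5 was at -0.13 (SE 0.25, adjusted p 0.751) per the authors' deposited table, with a 95% interval from -0.65 to 0.40, so at most a 1.32-fold higher level in XX-WT lies inside it. The Tdrd5 interval did not overlap those of Mael and Piwil2, whose lower ends were 0.83 and 0.60; the difference between genes was not tested, as it needs values per sample.

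**Figure D2:**
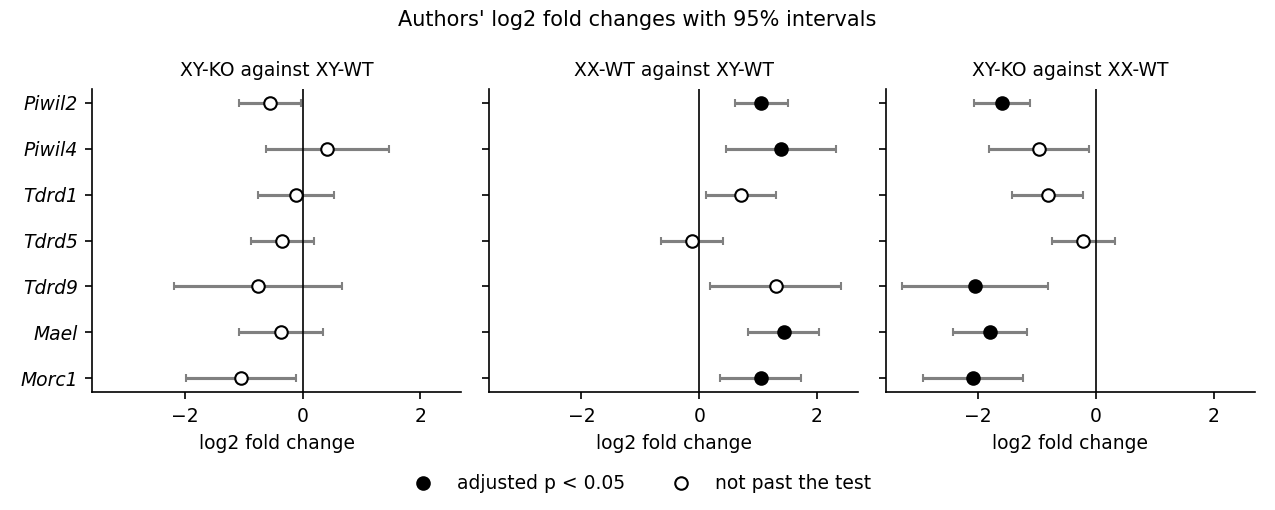
Log2 fold change of each of the 7 genes (horizontal axis) with its 95% interval in the 3 comparisons, from the authors' deposited tables; filled points are past an adjusted p of 0.05. No point is filled for XY-KO against XY-WT, and 4 are filled in each of the comparisons that include XX-WT.

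The comparison of XY-KO with XX-WT asks whether the Sox9-deleted testis has the ovarian level of these genes. Piwil2, Mael, Morc1 and Tdrd9 were lower in XY-KO, 4 of 7, against 9.11% of all genes called lower, and none was higher. The median log2 fold change of the 7 was -1.60, against 0.00 over all genes, and all 7 values were negative. This comparison shares the XX-WT samples with the sex comparison and the XY-KO samples with the knockout comparison, so the 3 sets of values are not independent.

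Piwil2 fell by 1.60 (SE 0.22, adjusted p 9.47e-05) in XY-KO against XX-WT per the authors' deposited table, or 3.03-fold (95% interval 2.18 to 4.21). Mael fell by 1.80 (SE 0.29, adjusted p 0.000372), or 3.48-fold (2.26 to 5.36), per the authors' deposited table. Morc1 fell by 2.08 (SE 0.40, adjusted p 0.00140), or 4.24-fold (2.36 to 7.61), and Tdrd9 by 2.05 (SE 0.58, adjusted p 0.0213), or 4.14-fold (1.76 to 9.72), per the authors' deposited table. These 4 levels were thus lower in XY-KO testis than in XX-WT ovary. Tdrd1 was at -0.82 (adjusted p 0.0554), Piwil4 at -0.97 (adjusted p 0.111) and Tdrd5 at -0.21 (adjusted p 0.630) per the authors' deposited table, none of them past the test.

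In the order of levels, XX-WT came first, XY-WT second and XY-KO last for Piwil2, Tdrd1, Tdrd9, Morc1 and Mael. For Piwil4 the order was XX-WT, XY-KO, XY-WT, and for Tdrd5 it was XY-WT, XX-WT, XY-KO. The neighbours XY-WT and XY-KO in the first order, and XY-KO and XY-WT for Piwil4, did not pass the test in any of these genes. XX-WT against XY-WT passed for Piwil2, Morc1 and Mael but not for Tdrd1 or Tdrd9. For Piwil4 neither step between neighbours passed, while the ends of the order, XX-WT and XY-WT, did. No pair passed for Tdrd5.

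Other genes of the pathway were read from a list of 25, of which 17 were measured. In XY-KO against XY-WT, 1 of the 17 was lower, against 1.57% of all genes, and none was higher; their median was -0.20. In XX-WT against XY-WT, 7 were higher and 1 was lower, against 10.9% and 12.4% of all genes, with a median of 0.54. In XY-KO against XX-WT, 9 were lower, against 9.11% of all genes, and none higher, with a median of -0.67. The gene that fell in the knockout was the same gene that was lower in the ovary, Mybl1.

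Mybl1 (A-MYB), a transcription factor known to switch on piRNA genes in meiotic spermatocytes, had a derived level of 5.05 log2 CPM in XY-KO, 5.04 in XX-WT and 6.29 in XY-WT. XY-KO and XX-WT thus lay at about the same level, below XY-WT. It fell by 1.23 (SE 0.19, adjusted p 0.00205) in XY-KO against XY-WT and by 1.24 (SE 0.19, adjusted p 0.000157) in XX-WT against XY-WT per the authors' deposited tables. Between XY-KO and XX-WT the difference was 0.01 (95% interval -0.41 to 0.43, adjusted p 0.977) per the authors' deposited table. The first 2 values share the XY-WT samples.

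The piRNA pathway genes higher in XX-WT ovary than in XY-WT testis were Tex15, Fkbp6, Tdrd7, Gpat2, Mov10l1, Rnf17 and Ddx4. Tex15, a binding partner of Piwi proteins needed for transposon methylation, rose by 1.86 (SE 0.17, adjusted p 9.91e-07) per the authors' deposited table. The co-chaperone Fkbp6 rose by 1.79 (SE 0.39, adjusted p 0.00314) and the tudor gene Tdrd7 by 1.05 (SE 0.24, adjusted p 0.00412) per the authors' deposited table. The values of Tex15 and Fkbp6 lie above those of the 4 called members. In the same comparison the mitochondrial acyltransferase gene Gpat2 was at 1.49, the helicase gene Mov10l1, which starts piRNA production, at 1.16, the tudor gene Rnf17 at 0.80 and the helicase gene Ddx4 (MVH) at 0.80 per the authors' deposited table.

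Against XX-WT, the XY-KO testis had lower levels of Tex15 (-1.85, SE 0.17, adjusted p 1.47e-06), Rnf17 (-1.17, SE 0.22, adjusted p 0.00113), Mov10l1 (-1.61, SE 0.31, adjusted p 0.00154) and Fkbp6 (-1.90, SE 0.38, adjusted p 0.00231) per the authors' deposited table. The mitochondrial scaffold gene Asz1 (-1.39), Gpat2 (-1.53), Ddx4 (-0.997), the chaperone gene Hsp90aa1 (-0.67) and the helicase gene Ddx39a (-0.45) were lower too per the authors' deposited table. Against XY-WT, the same XY-KO samples had Tex15 at 0.01 (95% interval -0.36 to 0.39) and Mov10l1 at -0.45 (-1.17 to 0.27) per the authors' deposited table. Tex15 thus had a narrow interval around 0 in the knockout comparison.

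Of 14 genes of DNA methylation and silencing in the germ line, 11 were measured. None was called by limma in XY-KO against XY-WT, against 2.27% of all genes. An unadjusted p under 0.05 was seen for 2, both lower in XY-KO, against 10.2% of all genes. In XX-WT against XY-WT 1 was higher and 1 lower, against 10.9% and 12.4% of all genes, and in XY-KO against XX-WT 2 were lower, against 9.11%. The medians over the 11 were -0.13, 0.03 and -0.08 in the 3 comparisons. Dnmt3a and Dnmt3b, the de novo methyltransferases that Dnmt3l assists, were at 0.15 (95% interval -0.12 to 0.41) and -0.13 (-0.44 to 0.18) in XY-KO against XY-WT, and at -0.07 and -0.09 in XX-WT against XY-WT, per the authors' deposited tables. Neither passed the test in any comparison. The chromatin remodeller gene Hells rose by 0.55 (adjusted p 0.0306) and Uhrf1, which recruits the maintenance methyltransferase, fell by 0.50 (adjusted p 0.0243) in XX-WT against XY-WT per the authors' deposited table. Once a trend with GC content and transcript length was subtracted, neither passed, with Hells at 0.43 (adjusted p 0.0850) and Uhrf1 at -0.37 (adjusted p 0.0956). In XY-KO against XX-WT, Hells fell by 0.71 (adjusted p 0.00927) and Tex19.1, a germ line gene that restrains retrotransposons, by 1.73 (adjusted p 0.0216) per the authors' deposited table. Many of these genes are used by somatic cells as well.

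**Figure D3:**
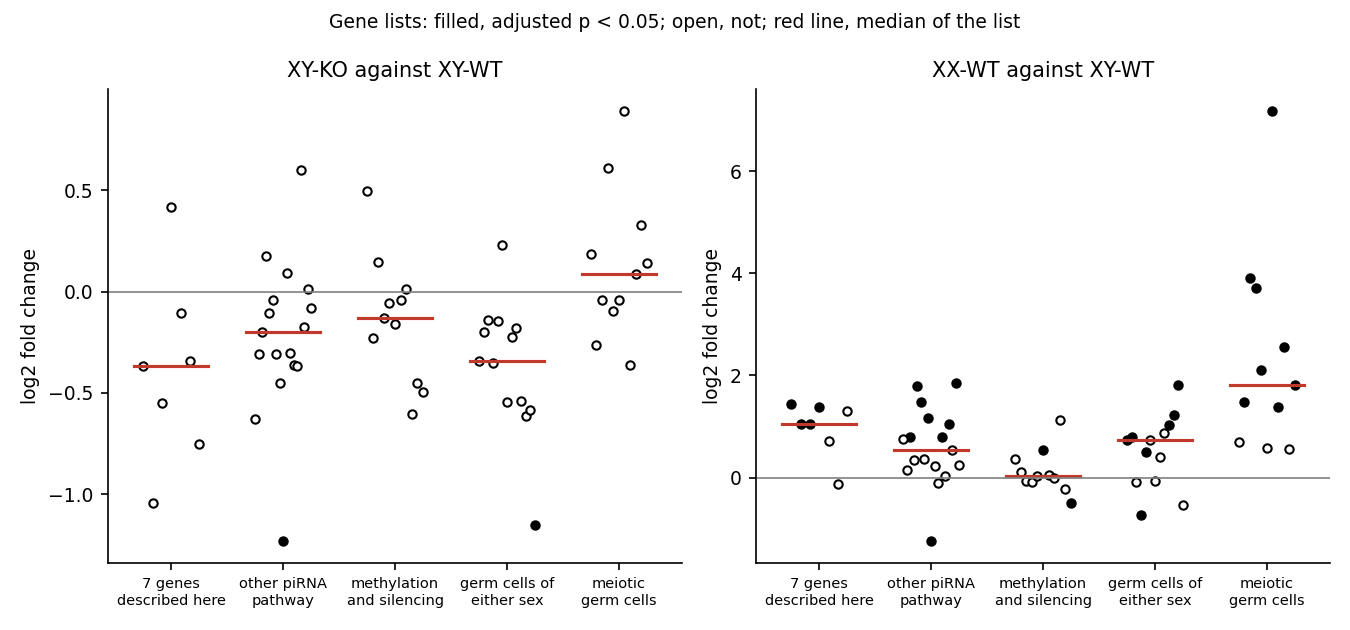
Log2 fold change of every measured gene of 5 lists in XY-KO against XY-WT (left) and XX-WT against XY-WT (right); the vertical scales differ, and Ddx4 stands in 2 lists. In the right panel the medians are 1.05 for the 7 genes, 0.54 for other piRNA pathway genes, 0.03 for methylation and silencing genes, 0.73 for germ cell markers and 1.82 for meiotic markers.

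Markers of the germ cells themselves moved in the same comparisons. Of 13 measured markers of germ cells of either sex, 6 were higher and 1 lower in XX-WT against XY-WT, against 10.9% and 12.4% of all genes. The median of the 13 was 0.73, with a range from -0.72 to 1.81. The smallest adjusted p belonged to the germ cell factor Tfap2c (1.81, adjusted p 0.000124) and to Sox2 (1.22, adjusted p 0.000599) per the authors' deposited table. Their summed level was 410 CPM in XY-KO, 722 CPM in XX-WT and 508 CPM in XY-WT, and no marker was near 0, the lowest being Prdm14 at 0.99 log2 CPM in XY-KO. In XY-KO against XY-WT 1 of the 13 was lower, Utf1 (-1.15, adjusted p 0.0277), against 1.57% of all genes. None was higher, and the median was -0.34 per the authors' deposited table. In XY-KO against XX-WT 8 were lower, against 9.11% of all genes, and none higher, with a median of -0.65. Tfap2c (-2.40) and Sox2 (-1.83) led these per the authors' deposited table. The part of germ cell content in the values of the 7 genes was not tested.

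Set beside the median of these markers, the log2 fold changes of the 7 genes differed from it by -0.86 (Tdrd5) to 0.70 (Mael) in XX-WT against XY-WT, with Tdrd1 at -0.02. In XY-KO against XY-WT the differences ran from -0.70 (Morc1) to 0.76 (Piwil4), with a median of -0.02. In XY-KO against XX-WT they ran from -1.44 (Morc1) to 0.43 (Tdrd5), with a median of -0.95. Among single markers, Dazl, an RNA-binding protein of germ cells, was 1.66-fold higher and Ddx4 was 1.74-fold higher in XX-WT against XY-WT per the authors' deposited table. Dppa3 was at -0.09 and Pou5f1 at -0.06 there per the authors' deposited table, so the markers did not share a single ratio.

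Meiotic markers, which the ovary's germ cells begin to express at this stage, had 8 of 11 higher and none lower in XX-WT against XY-WT. Over all genes 10.9% were called higher there. The median of the 11 was 1.82. The meiotic cohesin gene Rec8 (3.72) and the chromosome axis gene Hormad1 (1.48) had the smallest adjusted p per the authors' deposited table. In XY-KO against XX-WT 8 were lower, against 9.11% of all genes, with Rec8 at -3.11 and Hormad1 at -1.75 per the authors' deposited table. In XY-KO against XY-WT none was called by limma, against 2.27% of all genes. In that comparison 0 had an unadjusted p under 0.05, against 18.9% of all genes, and the median was 0.09. Stra8, the gene that starts meiosis, had derived levels of -3.76 log2 CPM in XY-KO and -4.66 in XY-WT, near the floor. The summed level of the 11 markers was 109 CPM in XY-KO, 452 CPM in XX-WT and 109 CPM in XY-WT.

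The somatic cells also differed between ovary and testis. Over all genes, 10.9% were called higher and 12.4% lower in XX-WT against XY-WT. For XY-KO against XX-WT these shares were 9.16% and 9.11%. Unless stated otherwise, the markers named for each cell type are the pair with the smallest adjusted p, not with the largest fold change. In XX-WT against XY-WT all 8 Sertoli cell markers were lower, among them Aard (-4.93) and Sox9 (-4.47), all 4 Leydig cell markers were lower, among them Hsd3b1 (-3.99) and Cyp17a1 (-7.07), and all 7 pre-granulosa cell markers were higher, among them Fst (7.27) and Runx1 (3.89), per the authors' deposited table. The largest fall was that of Amh (-11.04) among the Sertoli cell markers and that of Cyp11a1 (-7.25) among the Leydig cell markers per the authors' deposited table. Amh had a derived level of -4.30 log2 CPM (SE 0.97) in XX-WT, near the floor. The size of its differences from XX-WT is therefore uncertain. In XY-KO against XX-WT 6 Sertoli markers were higher and 1 lower, with Aard at 3.79, Cst9 at 5.11 and the largest value that of Amh (8.98), per the authors' deposited table. In the same comparison 4 Leydig markers were higher, among them Hsd3b1 (4.06) and Cyp17a1 (7.02), and 7 pre-granulosa markers lower, among them Fst (-6.68) and Runx1 (-3.11), per the authors' deposited table.

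**Figure D4:**
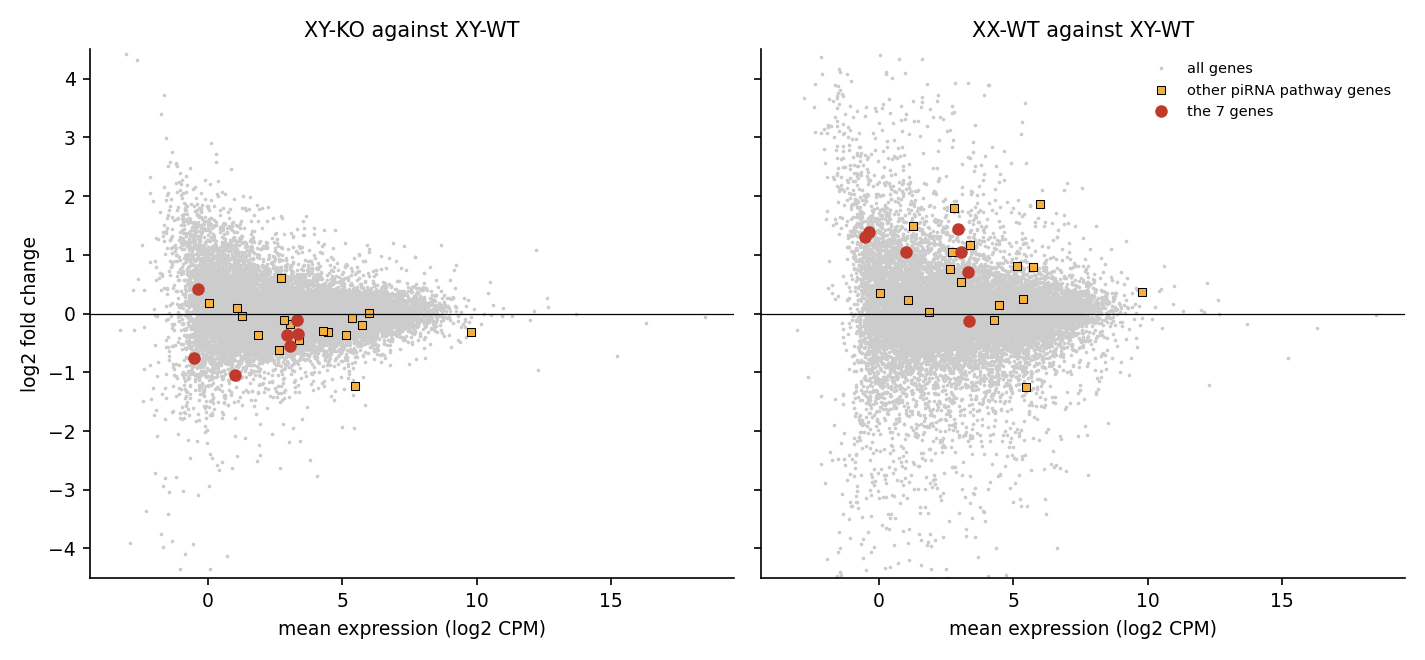
Log2 fold change (vertical axis) against the authors' mean expression (horizontal axis, log2 CPM) for all 15300 genes in grey, 17 other piRNA pathway genes as squares and the 7 genes as circles. In XX-WT against XY-WT, 6 of the 7 circles lie above 0, while in XY-KO against XY-WT 6 of the 7 lie below it; 1 gene in the left and 111 in the right panel fall beyond the vertical limit of 4.5.

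The profile of the 7 genes over the 3 comparisons, taken as the median of each log2 fold change, was -0.37, 1.05 and -1.60. Among 4290 genes called in at least 1 table, the 3 nearest by Euclidean distance were Gng13, Stag3 and Crabp2. Gng13 was at -0.40, 1.11 and -1.51, a distance of 0.114. The values of Stag3 were -0.43, 1.14 and -1.57, a distance of 0.115, and those of Crabp2 were -0.39, 1.15 and -1.54, a distance of 0.116. The measure rests on 3 group means with 2 independent differences. The 3 medians are not all of the same gene and do not add up as the 3 values of a gene must. No gene can therefore have a distance of 0, and part of each distance was fixed in advance.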

How the data were processed

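Gene expression was measured by RNA sequencing of SPIA-amplified total RNA. The submitters' processing notes name Trimmomatic 0.30, TopHat2 2.0.8, HTSeq 0.6.1p1 and limma 3.24.0 with GRCm38; the roles, the filters, the offset and the weighting are not given in the sources used here. The deposited tables hold, per the file headers, the authors' log2 fold change and mean log2 expression, limma's t and log-odds scores, and the p-value with its adjusted p-value, and no column of a single sample.

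From these, each SE was computed by dividing the log2 fold change by t, with 95% intervals at the 15.27 degrees of freedom that t and p imply. The recomputed Benjamini-Hochberg adjustment matched within a relative difference of 0.000769, and the 3 fold changes added up within 0.005. Group levels assume equal weight of the groups; CPM summed to between 973276 and 1019090 per group. Positions, transcript lengths and GC content came from GENCODE M21 (GRCm38), which gave symbols for 15192 IDs; 1 listed gene, Ddx39a, was matched through its older symbol. The GC and length trend was a robust regression with polynomials of degree 3, tested on simulated data. Alternatives were an adjusted p under 0.01, a 2-fold limit, adjustment over the 3 tables together, Bonferroni adjustment, genes at or above median expression, and the trend removed. The work used scipy 1.17.1, statsmodels 0.14.6, pandas 2.3.3 and numpy 2.4.6 in Python 3.11.15.

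Named genes were all measured members, every piRNA or methylation list gene past the test in any comparison, with full values for the 4 smallest adjusted p, the 2 smallest of each marker list, and the 3 nearest profiles; Dnmt3a, Dnmt3b, Pou5f1, Dppa3, Prdm14, Stra8 and the single values of Dazl and Ddx4 were chosen after their values were seen. The likeness planned for Nanos2 was not computed. The members and lists were chosen with earlier results of these data known.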

Additional observations from a re-analysis of the deposited data

How the results depend on the processing

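The count of 0 called members in XY-KO against XY-WT stayed at 0 when adjusted over the 3 tables together and with the trend removed. Of all genes, 6.03% and 1.69% were called under these rules. An adjusted p under 0.01, the 2-fold limit and Bonferroni adjustment are stricter than the main rule, so they could not add a call. Among genes at or above median expression only Tdrd1 and Tdrd5 were tested, and neither was called, against 2.69% of such genes. For the other comparisons the main count was 4 each. An adjusted p under 0.01 left 2 in XX-WT against XY-WT, against 6.03% of all genes called higher. It left 3 in XY-KO against XX-WT, against 5.25% called lower, where Tdrd9 (adjusted p 0.0213) was lost. Bonferroni adjustment left 0 in XX-WT against XY-WT, against 1.53% of all genes called higher. It left 1, Piwil2, in XY-KO against XX-WT, against 1.36% called lower. Among genes at or above median expression, where only Tdrd1 and Tdrd5 remained to be tested, both counts were 0. Of such genes 10.4% were called higher and 8.42% lower in the respective comparisons. Alternatives on the lists were chosen after seeing the data. With Bonferroni adjustment, the other piRNA pathway genes gave 0 calls in XY-KO against XY-WT, 1 in XX-WT against XY-WT and 1 in XY-KO against XX-WT. The shares of all genes called were 0.359%, 4.1% and 3.14%. At or above median expression only 9 of the 17 were tested, and 5 were called in XX-WT against XY-WT, against 24.6% of such genes. The calls missing there, Fkbp6, Tdrd7 and Gpat2, were of genes below the median that were not tested. The methylation and silencing genes gave 1 call in XY-KO against XY-WT with adjustment over the 3 tables together, against 6.03% of all genes. That call was Uhrf1 (adjusted p 0.0410). In XX-WT against XY-WT they gave 0 at an adjusted p under 0.01 and 0 with the 2-fold limit, against 13.9% and 12% of all genes. Bonferroni and the removal of the trend in GC content and length also gave 0 there, against 4.1% and 22.4%. For XY-KO against XX-WT the counts were 1 at an adjusted p under 0.01 and 1 with the 2-fold limit, against 11.1% and 10.1%. Bonferroni left 0 in that comparison, against 3.14%. Fold changes of members kept their direction and call in 62 of 69 alternative values, and the other 7 lost the call under Bonferroni. Only the removal of the trend alters a fold change, so direction could not change under the other alternatives. A value not called by the main rule could not gain a call under Bonferroni. Much of this count was therefore fixed in advance. Of the list genes' values 151 kept direction and call, 23 lost the call (20 under Bonferroni) and 1 gained it, with the same limits. Ddx4 in XX-WT against XY-WT had an adjusted p of 0.0542 over the 3 tables together. With the trend removed 5 values not past the test changed sign: in XY-KO against XY-WT Fkbp6 at 0.071, Tex15 at -0.18 and Gpat2 at 0.18, in XY-KO against XX-WT Mybl1 at -0.027, and in XX-WT against XY-WT Dnmt3b at 0.027. The cause was not tested. No paired analysis was possible because the tables hold comparisons of groups with no values per sample, and for the same reason no replicate was left out. The depth of each sample is unknown, so a limit of detection could not be given for low genes such as Tdrd9 and Piwil4.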

Other observations

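Among the other lists, CACGTG was found in a promoter window of 4 of 11 measured piRNA pathway genes with a window, 3 of 10 meiotic genes, 2 of 10 methylation and silencing genes, 1 of 8 germ cell markers and 0 of 4 Sertoli cell markers, against 8.09% of all 27025 genes with a window. TCCCGC was found for 5, 7, 7, 2 and 1 of them, against 22.1% of all genes. These are counts of letters in windows that differ in CG content, with a median of 21 CG dinucleotides for the piRNA pathway genes and 7.5 for the Sertoli cell markers.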
